A study of Mus musculus with 10 samples.

Results

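Shank1, Shank2, Shank3, Dlg4, Grip1, Cntnap2 and Cntnap4 encode scaffold and adhesion proteins of the synapse, and the question here is where Dlx2 was recorded on the DNA at and around them. They are 7 of 21900 protein-coding genes of the mouse annotation, chosen by name. A region was assigned to a member when its summit, the position of highest signal, lay in the gene body extended by 50 kb on each side. This gave 65 of the 25667 regions deposited in the series. Dlx2 is a homeodomain protein that directs the development of GABAergic neurons in the forebrain. Its binding was measured by chromatin immunoprecipitation and sequencing of formaldehyde-fixed, sonicated mouse brain tissue with an antibody specific for it. The 5 immunoprecipitated libraries covered 3 tissues at E16 (embryonic), namely basal ganglia, cortex and olfactory bulb, and at P3 (postnatal) the olfactory bulb and the cortex. The sources used here give no strain, genotype, sex, treatment or number of animals per library. The tissues are whole dissected regions with mixed cell types, and the other 5 samples are inputs that were not analysed here.

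Each tissue and age has 1 library, so no difference between lists could be set against a spread between animals and none carries a p-value. The lists held 14795 regions for E16 basal ganglia, 6333 for E16 cortex, 1666 for E16 olfactory bulb, 734 for P3 olfactory bulb and 2139 for P3 cortex. Read depth is unknown. A gene without a summit in a list was below the authors' threshold there and is not shown to be unbound. Region names carry a mark of duplicate removal in 4 of the 5 lists, the exception being P3 cortex (0 of 2139 names). The names in the basal ganglia and cortex lists of E16 follow a common pattern that the other 3 lists lack. Tissue, age and library handling therefore cannot be told apart between these groups. As a description of the lists, a summit lay at 8, 8, 7, 4 and 5 of 8 GABAergic marker genes in the order given above, and at 5, 6, 1, 0 and 1 of 6 glutamatergic ones. By the same rule 42.4%, 28.7%, 6.62%, 3.98% and 12.4% of all protein-coding genes had a summit. The GABAergic markers Dlx1 and Dlx2 share their strongest summit in each list that has one, as do Dlx5 and Dlx6. The basal ganglia list also had summits at 4 of 5 oligodendrocyte, 1 of 4 astrocyte, 1 of 3 microglial and 1 of 3 endothelial markers. These counts are of binding and not of expression, so they do not check the labelled tissue.

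Shank proteins are large scaffolds at the core of the postsynaptic density of excitatory synapses, where they tie receptor complexes to the actin cytoskeleton. Dlg4 encodes the abundant membrane-associated scaffold that anchors glutamate receptors and ion channels above the Shank layer. Grip1 is a multi-PDZ protein that binds AMPA receptor subunits, ephrin ligands and Eph receptors and takes part in their transport. Cntnap2 and Cntnap4 are neurexin-like adhesion proteins. The first is known for clustering potassium channels along axons, and the second for a role at the synapses of interneurons. Dlx factors bind short homeodomain sites with a TAAT core, and Dlx2 is needed for interneuron production and migration.

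The DNA just before a listed transcription start was read for the members, since a regulatory factor may act there. Of the 7 members, 4 had entries in the RefSeq promoter table of GRCm38.p6, with 9 starts in all. No deposited region of any list covered the 250 bases before any of the 9 starts. Over all 32817 such windows in the table, 3.07% lay under an E16 basal ganglia region, 1.05% under an E16 cortex region and between 0.192% and 0.777% under a region of the other lists. Of the 65 member summits, the 11 of Shank1, 8 of Shank2 and 3 of Cntnap4 had no listed start to be measured from. Only 1 of the others came within 1 kb of a listed start of its gene. It was an E16 basal ganglia summit 698 bp from a start inside Grip1. The start next in order of distance lay in Dlg4, 3.02 kb from a summit. The windows before these 2 starts, the nearest to any summit among the 9, are shown 5′ to 3′ on the plus strand, with any TAATT or its reverse complement AATTA in capitals.

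Grip1, chr10:119819139-119819388: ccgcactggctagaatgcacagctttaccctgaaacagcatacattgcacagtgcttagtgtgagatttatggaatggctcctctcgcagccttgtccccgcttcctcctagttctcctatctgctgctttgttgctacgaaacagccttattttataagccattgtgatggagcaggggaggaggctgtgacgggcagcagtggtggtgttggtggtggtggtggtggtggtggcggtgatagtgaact
Dlg4, chr11:70023732-70023981: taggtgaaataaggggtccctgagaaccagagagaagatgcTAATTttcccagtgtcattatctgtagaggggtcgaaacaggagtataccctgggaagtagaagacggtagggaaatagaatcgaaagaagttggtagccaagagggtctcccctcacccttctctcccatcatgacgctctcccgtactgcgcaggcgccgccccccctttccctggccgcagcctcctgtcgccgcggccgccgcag

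The Grip1 window held no TAATT on either strand. The Dlg4 window held 1, and another was found before the first Dlg4 start and before the first Cntnap2 start. TAATT, searched on both strands, occurred in 25.04% of all windows of this length, and 3 of the 9 member windows held it. The longer TAATTA, which contains TAATT, occurred in 4.85% of all windows and in 0 of the 9. A match is a string of letters, not a measured site. The sequence under the summits themselves was not used here.

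Every member had at least 1 summit in the E16 basal ganglia list. Shank1, Shank2, Shank3 and Dlg4 had 38 summits in the basal ganglia and cortex lists of E16 and 0 in the olfactory bulb and P3 lists. Grip1 was the only member with a summit in all 5 lists. Cntnap4 had a summit in 3 lists and Cntnap2 in 2. The 2 lists with Shank and Dlg4 summits are the longest and share a name pattern, and the part of library handling in these counts was not tested. In the lists without them a summit is uncommon for any gene, at 6.62% of all protein-coding genes for the bulb at E16, 3.98% for the bulb at P3 and 12.4% for the P3 cortex, so 0 of 4 is near the general share.

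**Figure D1:**
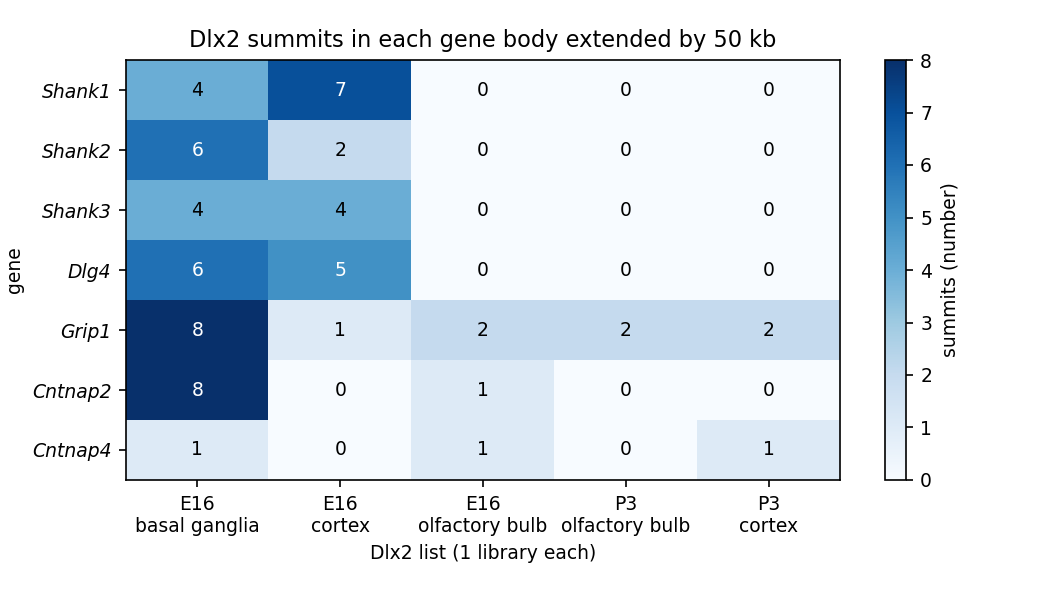
Number of Dlx2 summits (colour and printed number) in the body of each gene extended by 50 kb, for the 5 lists with 1 library each. Shank1, Shank2, Shank3 and Dlg4 fill only the first 2 columns, while Grip1 has entries from 1 to 8 in every column.

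Counted per list, 7 of 7 members had a summit in the E16 basal ganglia, where 42.4% of all protein-coding genes had one by the same rule. In the E16 cortex it was 5 of 7, against 28.7% of genes. The E16 olfactory bulb had 3 of 7 (Grip1, Cntnap2 and Cntnap4), against 6.62%. The P3 olfactory bulb had 1 of 7, Grip1, against 3.98%, and the P3 cortex 2 of 7, Grip1 and Cntnap4, against 12.4%. The median number of summits per member was 6 in the basal ganglia, 2 in the E16 cortex and 0 in the other 3 lists, while the median over all protein-coding genes was 0 in each of the 5 lists. With every list reduced to its 734 regions highest in −log10 q, 2 of 7 members had a summit in the basal ganglia, against 5.56% of protein-coding genes, and 2 of 7 in the E16 cortex, against 9.21%. In the other shortened lists it was 1 of 7 each, against 3% of genes for the bulb at E16, 3.98% for the bulb at P3 and 4.54% for the P3 cortex.

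A long body offers more room for a summit, so these counts were set beside gene length. The part of length in the member counts was not tested. In the E16 basal ganglia list the share of genes with a summit went from 38.2% of genes under 50 kb to 51.7% at 50 to 200 kb, 76.0% at 200 kb to 1 Mb and 94.9% over 1 Mb. Cntnap2, at 2241 kb, belongs to the last class with 59 genes, so its presence in that list matches most genes of its length. In the E16 cortex list the share did not climb with length and was 29.0%, 27.8%, 27.3% and 28.8% in the same order. The olfactory bulb lists went from 4.28% to 69.5% at E16 and from 2.84% to 42.4% at P3, and the P3 cortex from 9.84% to 47.5%. Cntnap2 was listed in the first of these 3 and not in the other 2. Shank2, Grip1 and Cntnap4 belong to the class of 200 kb to 1 Mb. The bulb list of E16 held a summit for 28.5% of that class and for 2 of these 3 members. The P3 cortex list gave 37.1% and 2 of 3, and the bulb list of P3 gave 15.5% and 1 of 3.

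**Figure D2:**
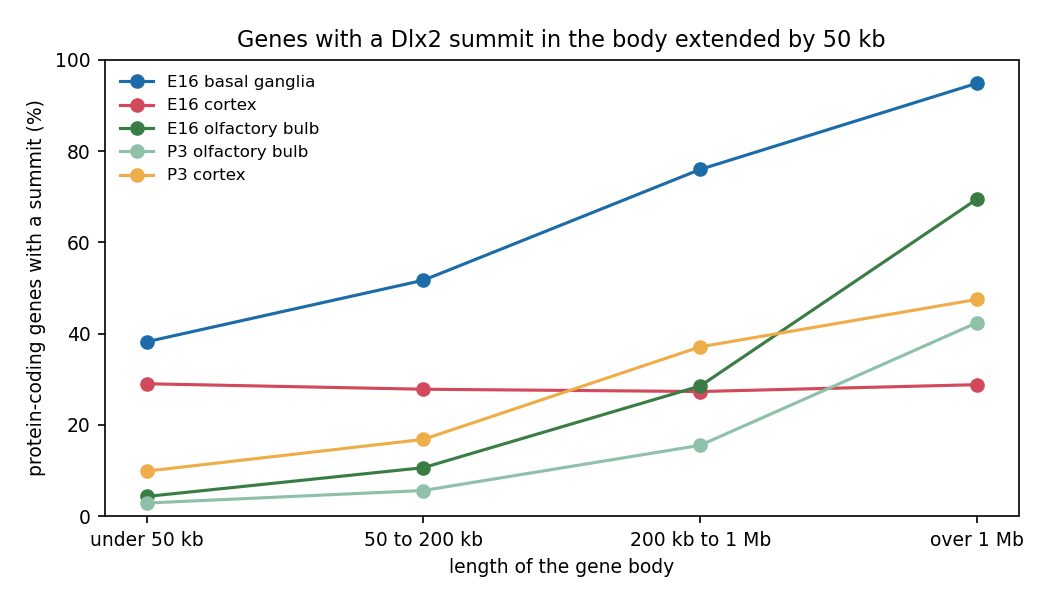
Percent of protein-coding genes with at least 1 Dlx2 summit in the body extended by 50 kb (y axis), by length of the gene body in 4 classes (x axis), 1 line per list. The E16 basal ganglia line climbs from 38.2% to 94.9%, while the E16 cortex line stays between 27.3% and 29.0%.

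The windows of the 7 members together spanned 4.48 Mb. They held 8.25 summits per Mb in the E16 basal ganglia list, against 6.98 per Mb over the windows of all protein-coding genes. The figures were 4.24 against 3.64 in the E16 cortex, 0.892 against 0.642 in the E16 olfactory bulb, 0.446 against 0.308 in the P3 olfactory bulb and 0.669 against 0.925 in the P3 cortex. As a set the members thus lay near the density of genes at large, and the differences lay between members. In the E16 basal ganglia the density was 46.8 per Mb at Dlg4, 26.5 at Shank1 and 23.9 at Shank3, but 10.9 at Grip1, 10.95 at Shank2, 3.42 at Cntnap2 and 2.42 at Cntnap4. The compact genes were the dense ones. Their windows held 9 other protein-coding genes at Dlg4, 6 at Shank1 and 4 at Shank3. Shank2 and Grip1 had 1 each, and Cntnap2 and Cntnap4 had 0. Over all lists 2 of 11 Dlg4 summits lay in the gene body, against 9 of 11 at Shank1 and 8 of 8 at Shank3. The part of neighbouring genes in these densities was not tested.

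Shank1 lies on chromosome 7 from 44308916 to 44360094 (mm10) and had 4 summits in the E16 basal ganglia list and 7 in the E16 cortex list. The strongest region of both lists covered the same stretch inside the gene. In the basal ganglia it ran from 44350345 to 44355831, 5487 bp wide, with a fold enrichment of 12.9 over local background and a −log10 q of 71.5, which ranked it 361 of 14795 by −log10 q. In the cortex it ran from 44350324 to 44355290, 4967 bp wide, with a fold enrichment of 20.4 and a −log10 q of 82.4, rank 171 of 6333. The summits were 133 bp apart and lay 7.39 and 7.52 kb inside the higher-coordinate end of the gene. Fold enrichment belongs to each library, so the larger cortex value cannot be read as more binding.

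A second Shank1 region stood closer to that end. Its basal ganglia summit lay 2.98 kb inside it, with a fold enrichment of 6.37 and a width of 1788 bp. The same stretch was covered in the cortex list by 2 regions with fold enrichments of 7.67 and 3.36. The remaining cortex regions of Shank1 were weak, all 4 of them between 3.36 and 4.39, below the cortex list's median fold enrichment of 5.02. The remaining basal ganglia summits lay outside the gene, one of them inside Clec11a, 4.19 kb before the Shank1 body, and the other 45.96 kb before it and next to Gm15517.

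Shank3, on chromosome 15 from 89493013 to 89560261, showed the same arrangement with 4 summits in each of both E16 lists and all 8 inside the gene. Its strongest basal ganglia region spanned 1738 bp (89547656 to 89549393) with a fold enrichment of 10.4 and rank 339. The matching cortex region spanned 1885 bp (89547292 to 89549176) with a fold enrichment of 13.99 and rank 227. Their summits were 46 bp apart, 11.94 and 11.99 kb inside the gene end. The RefSeq table places Shank3 on the plus strand, so this is the 3′ part of the gene, and the listed start was 48.7 kb away from both.

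The next Shank3 region again lay close to the end of the gene. In the basal ganglia its summit was 2.09 kb inside the end, with a fold enrichment of 8.38 and a width of 2306 bp. In the cortex list 2 regions covered the stretch, with fold enrichments of 10.4 and 4.27, and the stronger had its summit 1.98 kb from the end. A weaker shared region stood 27.2 kb inside the gene end, at 4.03 in the basal ganglia and 2.97 in the cortex. The only Shank3 region found in 1 list was a basal ganglia region of 300 bp with a fold enrichment of 3.13.

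**Figure D3:**
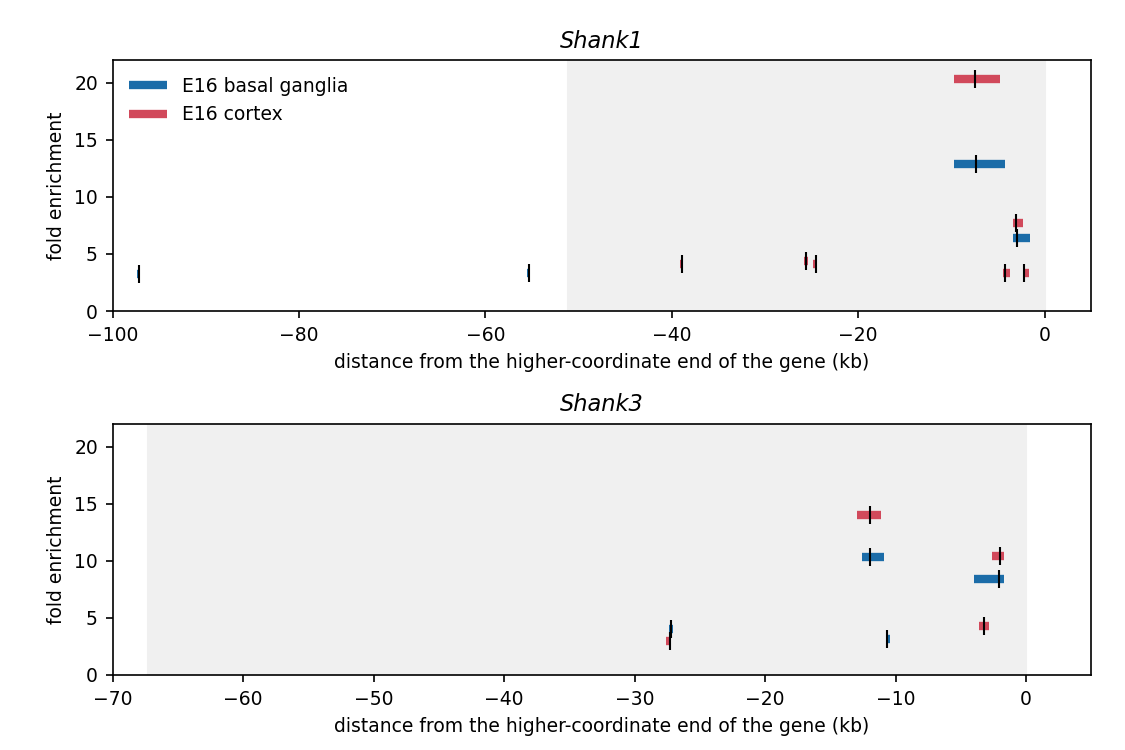
Dlx2 regions along Shank1 (top) and Shank3 (bottom) in 2 E16 lists (basal ganglia, cortex); the x axis is distance in kb from the higher-coordinate end of the gene, the y axis the authors' fold enrichment, bars span the regions, black ticks mark summits and shading marks the gene body. In both genes the strongest regions of the 2 lists lie over each other, 7.39 to 7.52 kb from the end of Shank1 and 11.94 to 11.99 kb from the end of Shank3.

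Of the 8 member regions over 1 kb wide, 6 lay in Shank1 or Shank3, 1 in Shank2 and 1 in Grip1. Over the whole lists, regions of that width made up 13.8% in the E16 basal ganglia and 25.2% in the E16 cortex, against 4 of 37 and 3 of 19 member regions.

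Shank2, on chromosome 7 from 143978077 to 144426043, is 448 kb long and had weaker regions than its paralogs. The E16 basal ganglia list gave 6 summits with fold enrichments between 3.52 and 5.60, and the E16 cortex list gave 2, of 7.35 and 5.49. The stronger cortex region was 1261 bp wide, ranked 1301 of 6333 and lay 13.2 kb inside the higher-coordinate end of the gene. It overlapped a basal ganglia region of 636 bp with a fold enrichment of 5.47, whose summit was 142 bp away. The other shared region, of 5.49 in the cortex and 3.52 in the basal ganglia, lay inside the neighbouring gene Cttn, which encodes the actin-binding protein cortactin. The remaining 4 basal ganglia summits had no counterpart in another list, and 3 of them lay in the gene body.

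Dlg4, on chromosome 11 from 70017203 to 70045535, is the shortest member, and most summits assigned to it lay at its neighbours. The E16 basal ganglia list had 6 summits in the window and the E16 cortex list 5. For 8 of these 11 another protein-coding gene was closer, namely Ctdnep1, Gabarap, Phf23 and Acadvl. Inside Dlg4 each list had 1 region, and these overlapped. The basal ganglia one had a fold enrichment of 5.28 and rank 5789 of 14795, and the cortex one 6.08 and rank 2175 of 6333. Their summits were 375 bp apart and lay 3.02 and 3.39 kb from the Dlg4 start shown above. A further basal ganglia summit, of fold enrichment 4.30, lay 331 bp past the end of the gene.

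Grip1, on chromosome 10 from 119453238 to 120087267, carried the member region that ranked highest within its own list. In the P3 cortex list a region of 1206 bp (119952736 to 119953941) had a fold enrichment of 43.5 and a −log10 q of 307.9, rank 4 of 2139. The same place had a fold enrichment of 12.3 and rank 26 of 1666 in the E16 olfactory bulb, and 11.6 and rank 46 of 734 in the P3 olfactory bulb. The 3 summits fell within 36 bp of each other, about 500.1 kb into the gene. No region overlapped it in the basal ganglia list or the E16 cortex list, although these lists are the longest.

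That combination of lists was uncommon. Of 18667 regions obtained by merging the 5 lists, 40 were in both olfactory bulb lists and the P3 cortex list and in no other. Among these 40 the Grip1 region ranked 2 by fold enrichment in the E16 bulb and 3 in both the P3 bulb and the P3 cortex. The 3 regions closest to it in fold enrichment over the 3 lists, by the summed absolute log2 ratio, lay within Slc38a9 (0.335) and Smad2 (0.420) and 9.38 kb from Sowahb (0.724). In the P3 cortex list these had fold enrichments of 39.7, 49.1 and 39.3. The lists that hold this region are the 3 whose region names do not follow the pattern of the other 2, and the part of library handling in this result was not tested. The P3 cortex list is also the one without a mark of duplicate removal. The part of this in its fold enrichments and −log10 q values was not tested.

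A second Grip1 region, 282.5 kb into the gene, was in the E16 basal ganglia and both olfactory bulb lists. Its fold enrichment was 8.21 in the E16 basal ganglia (rank 2181), 8.23 in the E16 bulb (rank 165) and 6.95 in the P3 bulb (rank 146). The basal ganglia and P3 bulb summits were 1 bp apart, and the E16 bulb summit stood 58 bp from the former. In all, 285 merged regions had this combination of lists. The nearest in fold enrichment lay within Dennd1a (summed log2 ratio 0.0611), and the next lay 1183 kb from the ephrin gene Efnb2 (0.266).

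The other Grip1 summits came mostly from the E16 basal ganglia. A region 425.2 kb into the gene had a fold enrichment of 8.60 there and 4.87 in the P3 cortex, with summits 2 bp apart. Of the regions found in no other list, those at 238.6 kb and 431.5 kb had 6.53 and 7.03. The pair after the internal start shown above had 3.52 and 5.04, with summits 698 and 1387 bp past it. Only 1 Grip1 region was in the E16 cortex list, with a fold enrichment of 4.56 and a summit 306 bp from a basal ganglia summit of 4.69. All 15 Grip1 summits were inside the gene body.

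**Figure D4:**
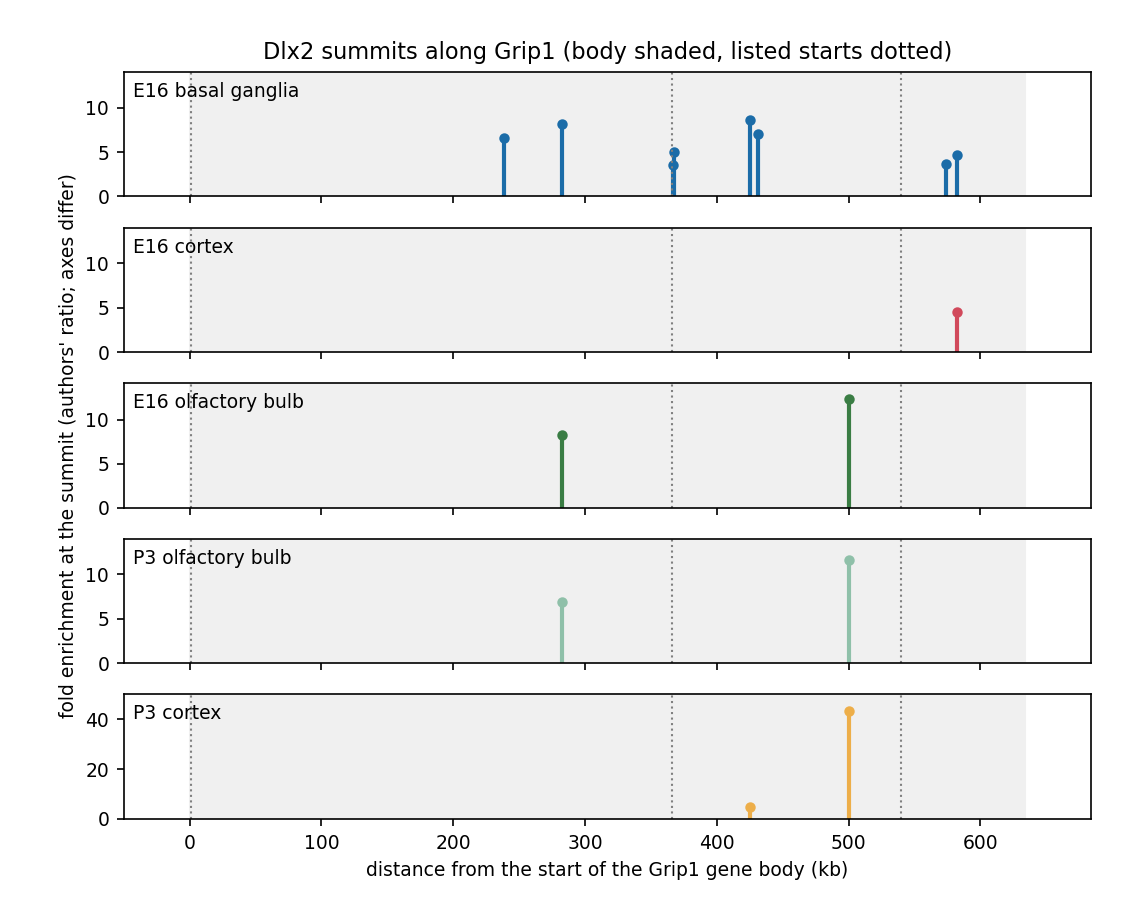
Dlx2 summits along Grip1, with distance from the start of the gene body in kb on the x axis and the authors' fold enrichment on the y axis, 1 panel per list; the gene body is shaded, dotted lines are listed transcription starts, and the y axis of the P3 cortex panel is longer than the others. The summit near 500.1 kb is in both olfactory bulb lists and reaches 43.5 in the P3 cortex, and it is missing from the upper 2 panels.

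Cntnap2, on chromosome 6 from 45060061 to 47301393, had 8 summits in the E16 basal ganglia list and 1 in the E16 olfactory bulb list, all inside the gene. Over the series 72.9% of merged regions were in 1 list only, and none of the 9 Cntnap2 regions overlapped a region of another list. The strongest, 1991 kb into the gene, had a fold enrichment of 9.97 in the basal ganglia and rank 1366 of 14795. It stood between summits 1983 and 2001 kb into the gene with 5.35 and 4.10. The other 5 basal ganglia regions ranged from 3.52 to 5.47. The olfactory bulb region, 881.4 kb before the end of the gene, had 4.70, below that list's median of 5.25. The nearest summit to the first listed start was 77.8 kb before it, outside the window, in the P3 cortex list.

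Cntnap4, on chromosome 8 from 112569798 to 112882707, had no summit inside the gene in any list. Its single region lay 24.1 to 24.2 kb past the higher-coordinate end, with Cntnap4 as the closest protein-coding gene. It was in 3 lists, with a fold enrichment of 6.73 in the E16 basal ganglia (rank 3010 of 14795), 4.001 in the E16 olfactory bulb (rank 1507 of 1666) and 4.51 in the P3 cortex (rank 1234 of 2139). The basal ganglia and P3 cortex summits were 2 bp apart and the bulb summit 138 bp from the former. Over the series 94 merged regions had this combination, and the closest in fold enrichment lay 91.1 kb from the zinc finger gene Sall1 (summed log2 ratio 0.150) and within Phactr3 (0.216) and the chromatin remodeller gene Chd7 (0.250). Just beyond the 50 kb limit, further summits stood 53.8 kb (basal ganglia, 7.19) and 58.0 kb (E16 bulb, 3.98) past the gene.

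**Figure D5:**
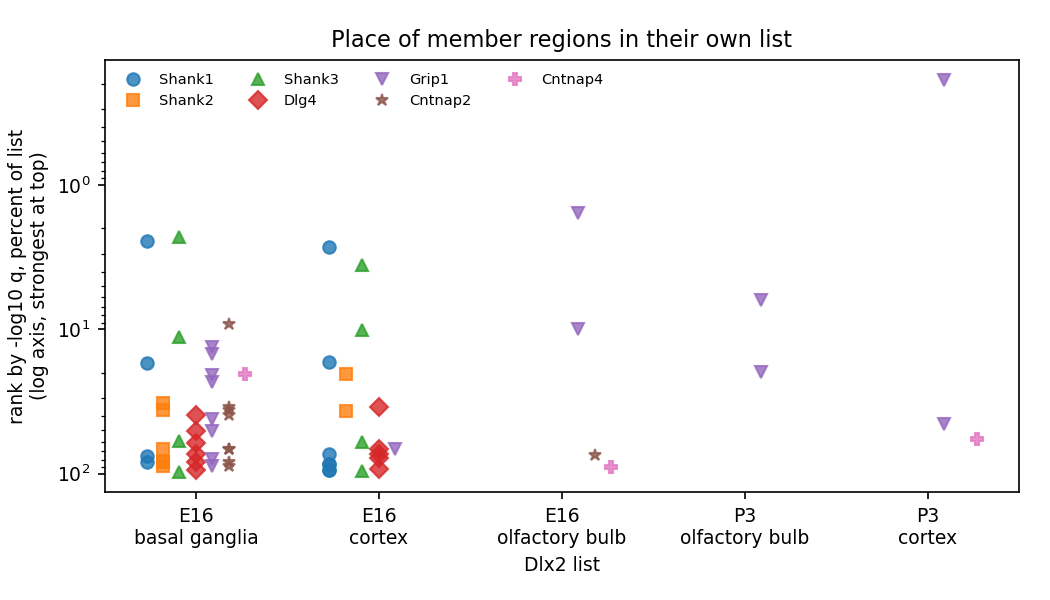
Rank of each member region by −log10 q as a percent of its own list (y axis, log scale, strongest at the top), for the 5 lists (x axis) with 1 symbol per gene. The Grip1 regions of the P3 cortex, at 0.187%, and of the E16 olfactory bulb, at 1.56%, stand at the top. The strongest Shank1 and Shank3 regions of the E16 basal ganglia and cortex lists follow, at 2.29% to 3.58%.

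Most member regions were of middling strength. Of the 37 basal ganglia regions 19 exceeded their list's median fold enrichment of 4.55, as did 7 of 19 E16 cortex regions (median 5.02). The bulb lists had 2 of 4 such regions at E16 and 2 of 2 at P3, and the P3 cortex list 3 of 3. Inside the gene body lay 48 of the 65 summits, and the member was the closest protein-coding gene for 53.

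Sharing between lists was counted as any overlap, and the intervals are exact Clopper-Pearson intervals at 95% that cover counting error only. Of 19 E16 cortex member regions 14 overlapped a basal ganglia region (73.7%, 48.8 to 90.9), where 61.5% of all cortex regions did. In the other direction it was 11 of 37 (29.7%, 15.9 to 47.0) against 26.4%. These 11 were all at the Shank genes, Dlg4 and, in 1 case, Grip1. Of 4 E16 bulb member regions 2 overlapped a basal ganglia region (6.76 to 93.2%) against 72.7%, and in the other direction 2 of 37 did (5.41%) against 8.16%.

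No member region was shared between E16 cortex (19 regions) and E16 bulb (4), or between E16 and P3 cortex (3). Over the whole lists, 2.29% of E16 cortex and 8.52% of E16 bulb regions were shared in the first pair. In the second pair it was 1.705% of E16 cortex and 5.14% of P3 cortex regions. Both P3 bulb member regions, 2 of 2, were in the E16 bulb list, which had 4, and over the whole lists 71.5% of P3 bulb regions were. At P3 the cortex and bulb lists had 1 member region in common, the strong Grip1 one, out of 3 and 2. Over the whole lists 8.88% of P3 cortex regions and 25.6% of P3 bulb regions overlapped the other list. Over the 5 lists the 65 regions merged into 44, of which 29 were in 1 list, 12 in 2 and 3 in 3. In the series as a whole 72.9% of merged regions were in 1 list, against 65.9% here.

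The other genes of the same protein complexes were read by the same rule. Of 38 such genes 28 had a summit in the basal ganglia list, 18 in that of E16 cortex and 10 in that of P3 cortex, while the bulb lists had 7 at E16 and 3 at P3. As shares these were 73.7%, 47.4%, 26.3%, 18.4% and 7.89%. Of all protein-coding genes, 42.4%, 28.7%, 12.4%, 6.62% and 3.98% had a summit in the same order of lists. These genes were not matched to the others by length, and the part of gene length in their counts was not tested. These genes were chosen with earlier results of the data known. Among 15 postsynaptic scaffold genes 12 had a summit in the basal ganglia list, 10 in that of E16 cortex and 5 in that of P3 cortex. The bulb lists had 3 at E16 and 2 at P3. The scaffold gene Cttn is a neighbour of Shank2. Its 2 summits in the basal ganglia list and 2 in the E16 cortex list are also Shank2 summits. Cttn thus enters the counts of 12, 10, 28 and 18 through regions already counted for a member. Dlgap4, whose protein links the Dlg and Shank layers, had a summit in all 5 lists, with a highest fold enrichment of 6.55 in the E16 cortex, 6.38 in the basal ganglia and lower values in the other 3. Lrrc7, encoding densin, had 19.5 in the basal ganglia (rank 205) and 8.22 in the E16 bulb, with summits at 158310633 and 158310622 on chromosome 3. Dlg2, a paralog of Dlg4 with a body of 1973 kb, was in 4 lists, with 8.87 in the basal ganglia and 6.14 in the P3 cortex at summits outside the gene. Homer3, which binds Shank, had 27.4 in the basal ganglia and 27.5 in the E16 cortex, with both summits outside the gene. Dlgap2 was in 3 lists, with 7.82 in the basal ganglia, 5.65 in the E16 cortex (outside the gene) and 4.33 in the P3 cortex.

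A set of 8 genes held Grip2, a paralog of Grip1, and partners of Grip proteins. Of these 8, 5 had a summit in the basal ganglia list and 5 in the E16 cortex list, Grip2 among them in both. It was 1 in the E16 bulb, 1 in the P3 cortex and 0 in the P3 bulb. Efnb1, an ephrin gene, had the highest value, of 16.2 in the basal ganglia and 30.5 in the cortex, inside the gene. Of 15 contactin and contactin-associated genes and their partners at the axon, 11 had a summit in the E16 basal ganglia, 3 in the E16 cortex and 4 in the P3 cortex, with 3 and 1 in the bulb lists of E16 and P3. Over all protein-coding genes the shares were 42.4%, 28.7%, 12.4%, 6.62% and 3.98% in the same order. Some of the 15 are long, and in the basal ganglia list 76.0% of genes of 200 kb to 1 Mb and 94.9% of longer ones had a summit. The 3 genes of the E16 cortex list were Cntn2, Nfasc and Cntnap1, and the first 2 are neighbours that share the same strongest summit. Cntn5, a contactin gene of 1271 kb, was in 4 lists and reached 12.3 in the P3 cortex (rank 87 of 2139).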

How the data were processed

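The members and gene lists were chosen with earlier results of these data known. The data are 5 lists of regions in the MACS2 narrowPeak layout, 1 per immunoprecipitated library. Per the submitters' processing notes, Trimmomatic, Bowtie2, SAMtools and MACS2 were used with the build mm10. Tool versions, the calling threshold and the control library were not stated there or in the labels. The authors' fold enrichment is a ratio of signal at the summit over local background, and their −log10 p and −log10 q values are those of the summit. The deposited score column was not used. These values describe and rank regions within a list only, and no filter was applied. Summits (start plus offset) and coordinates are counted from 1. Gene bodies came from RefSeq GRCm38.p6 (49997 genes, 21900 protein-coding), the assembly behind mm10. Regions were called shared when overlapping by at least 1 bp, and merged across lists by such overlaps. The planned motif search at summits was replaced by promoter windows of 250 bases, since no genome sequence was used here. Named were all members, their strongest, shared and start-proximal regions, the 3 merged regions most like each member region of 3 lists or more, and other pathway genes in 3 or more lists or with the 2 highest −log10 q of a list. Some items that this rule names are not reported here. Counting was tested on simulated regions. Python 3.11.15, pandas 2.3.3 and scipy 1.17.1 were used. Intervals cover counting error only.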

Additional observations from a re-analysis of the deposited data

How the results depend on the processing

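Of 93 values recomputed under another setting, 80 stayed within 1.5 times the reported count and 13 did not. When each list was reduced to its 734 strongest regions, the members with a summit fell to 2 in the basal ganglia, 2 in the cortex and 1 in the bulb at E16, and 1 in the P3 cortex, and the summits to 2, 3, 2 and 1. Fewer regions enter under this setting. With gene bodies extended by 10 kb, or not extended, the P3 cortex had 1 member in place of 2, since the Cntnap4 region lies farther out. Basal ganglia regions shared with the E16 cortex numbered 5 when 50% of both regions had to overlap and 7 with summits within 200 bp, in place of 11. By the first of these criteria the P3 cortex and P3 bulb shared 0 member regions in place of 1, although the Grip1 summits were 27 bp apart. Counts were within 1.5 times under a −log10 q of at least 5, without regions over 1 kb, with 100 kb flanks, with any overlap of the region in place of its summit and with the member as closest gene. Without the P3 cortex list, a setting chosen after seeing the data, the merged member regions in 2 or more lists numbered 14 in place of 15. No paired analysis was possible because each group has 1 library. Read depth is unknown, so lists of different length cannot be compared for weak regions.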
